A study of Homo sapiens with 9 samples.

Results

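The aryl hydrocarbon receptor (AHR) axis was read in 6 genes of HepG2 cells, an established human liver tumor cell line: the receptor AHR, its partner ARNT and the target genes CYP1A1, CYP1A2, ALDH3A1 and TIPARP. All 6 were found among the 22587 genes of the deposited table, in all 9 libraries. The set was chosen by the FPKM of CYP1A1, highest after 12 h without glutamine (Gln), so its values are a description with no test. Total RNA was sequenced from 9 HepG2 samples: Gln was added to 3, and 3 each were kept without Gln for 12 h or 24 h. All were grown in high-glucose DMEM with fetal bovine serum, and for deprivation the medium was exchanged for DMEM free of Gln a day after seeding. The labels do not say whether the medium of the Gln-added cultures was exchanged at that time, so the time since fresh medium and the absence of Gln cannot be told apart. GlutaMAX, a dipeptide that supplies Gln, is listed as the treatment of the Gln-added cultures, while the treatment protocol puts it in the deprivation medium. Every library comes from the same tumor line, and nothing states that the 3 libraries of a group were cultured on separate occasions, so p-values measure only the spread between these libraries.

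AHR is a transcription factor of the bHLH-PAS family that waits in the cytoplasm with HSP90 chaperones and PTGES3 (p23). When it binds a ligand, such as dioxin, a polycyclic hydrocarbon or an indole made from tryptophan, it moves to the nucleus, pairs with ARNT and binds DNA at elements with the core GCGTG. CYP1A1 and CYP1A2, cytochrome P450 enzymes that oxidise aromatic compounds, are its best known targets in the liver, and CYP1A1 clears AHR ligands, while TIPARP and AHRR repress the receptor. CYP1A2 is an abundant enzyme of hepatocytes, whereas CYP1A1 is low until it is induced.

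CYP1A1 lies on chromosome 15 of GRCh38.p14 from 74719542 to 74725528 on the minus strand (RefSeq), and CYP1A2 from 74748845 to 74756607 on the plus strand. They point away from each other, with 23316 bases between their start sites. The 2000 bases upstream of each start site were searched for the 5-base core GCGTG on either strand, and for the 7-base form TNGCGTG, which contains the core. CYP1A1 held 11 cores, 5 of them in the 7-base form, and CYP1A2 held 1 core and no 7-base form. Of 35116 RefSeq start sites, 78.5% held a core in the same length (median 2 cores) and 0.726% held at least 11. The 7-base form was present at 28.6% of start sites, and 0.0541% held at least 5. The CYP1A1 stretch is also rich in G and C (62.2%), which was not allowed for in these shares. A match of letters is a description and does not show that AHR binds there. The 300 bases below, chr15:74726500-74726799 on the minus strand, lie 1271 to 972 bases before the CYP1A1 start site. They are shown because they hold 5 of the 11 cores and 2 of the 7-base forms, with the core in capitals, read as GCGTG or, on the other strand, CACGC.
CYP1A1 upstream: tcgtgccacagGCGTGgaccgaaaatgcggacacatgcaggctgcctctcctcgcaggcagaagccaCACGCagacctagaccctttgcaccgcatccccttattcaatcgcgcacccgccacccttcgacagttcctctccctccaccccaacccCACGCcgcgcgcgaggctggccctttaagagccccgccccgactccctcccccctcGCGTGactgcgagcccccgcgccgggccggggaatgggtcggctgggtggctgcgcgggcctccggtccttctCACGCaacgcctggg

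The other 7-base forms before CYP1A1 and the lone core before CYP1A2 are shown with 10 bases on each side, 5′ to 3′ on the strand of the gene and with the core in capitals. They sit 1385, 898 and 503 bases before the start site of CYP1A1 (chr15:74726899-74726923, chr15:74726412-74726436 and chr15:74726017-74726041) and 454 bases before that of CYP1A2 (chr15:74748381-74748405).
CYP1A1 at 1385: ttgagctaggCACGCaaatacaact
CYP1A1 at 898: gtcgccggcgCACGCaagctagccg
CYP1A1 at 503: cagcgcttctCACGCgagccgggac
CYP1A2 at 454: gtggctggaaCACGCccatttactg
The whole stretch between both start sites held 34 cores, or 1.46 per 1000 bases, against 5.5 in the 2000 bases before CYP1A1 and 1.21 over the 2000-base windows of all start sites. TIPARP (chromosome 3 from 156674590 to 156706770, plus strand) has 3 RefSeq start sites, and 7 cores stood before the first, with 1 in the 7-base form. ARNT (chromosome 1 from 150809713 to 150876599, minus strand) held 6 cores and 2 7-base forms, and AHR (chromosome 7 from 17298652 to 17346147, plus strand) held none. ALDH3A1 lies on chromosome 17 from 19737984 to 19748298 on the minus strand.

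**Figure D1:**
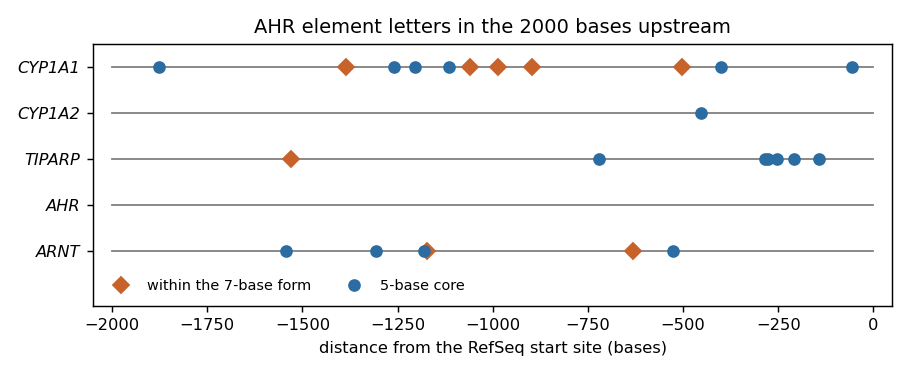
Each line is the stretch upstream of a RefSeq start site in bases, with start sites at 0 on the right (the first of 3 for TIPARP). Circles are 5-base cores and diamonds are cores within the 7-base form, of which CYP1A1 has 5, ARNT 2, TIPARP 1 and the others none.

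Levels are given in FPKM, fragments scaled to gene length and library depth, so genes can be compared per length. The number of fragments behind each FPKM was recovered from the steps between values. Libraries held 29621270 to 36261546 fragments on genes, with the lowest total in replicate 1 at 12 h. The liver label was checked with 7 liver-cell markers (ALB, AFP, APOA1, TTR, FGB, SERPINA1 and HNF4A), all of them above the filter. Their summed level was 6554 to 6649.9 FPKM in the Gln-added libraries, 5609.5 to 5689.9 after 12 h and 5407 to 5771 after 24 h. At each time 5 of the 7 were lower than with Gln added, beside 31.0% of all genes tested at 12 h and 31.7% at 24 h. Markers of fibroblasts, endothelium and blood cells summed to at most 0.364 FPKM in any library over the 5 of 7 with a value, and COL1A1, COL3A1 and CSF1R had no more than 3 fragments in a library, while PECAM1 had 24 to 88. In such bulk libraries, fewer cells of a kind and less RNA per cell cannot be told apart. The part of the lower liver markers in the results below was not tested. Differences were tested with limma on log2(FPKM + 0.1) for 11880 genes, those whose mean reached 0.5 FPKM, and a gene was called higher or lower, or said to rise or fall, where the p adjusted over all of them was under 0.05. All 6 members passed this filter.

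CYP1A1 was low with Gln added, highest at 12 h and much lower again at 24 h, though still above Gln added. With Gln added, it stood at 6.31, 6.48 and 5.90 FPKM in the 3 libraries (546 to 589 fragments). At 12 h it stood at 62.4, 63.0 and 58.3 FPKM (4813 to 5946 fragments). At 24 h it stood at 11.4, 11.5 and 11.1 FPKM (993 to 1062 fragments). The 3 groups did not overlap, and the replicates of each lay close together. The means were 6.23 ± 0.297, 61.2 ± 2.56 and 11.3 ± 0.207 FPKM (SD, n = 3 each). The ratio of means was 9.83 at 12 h and 1.82 at 24 h against Gln added, or a difference of 3.28 and 0.85 on the log2(FPKM + 0.1) scale (SE 0.048 for each). Of the 55.0 FPKM gained by 12 h, 9.25% was left at 24 h.

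**Figure D2:**
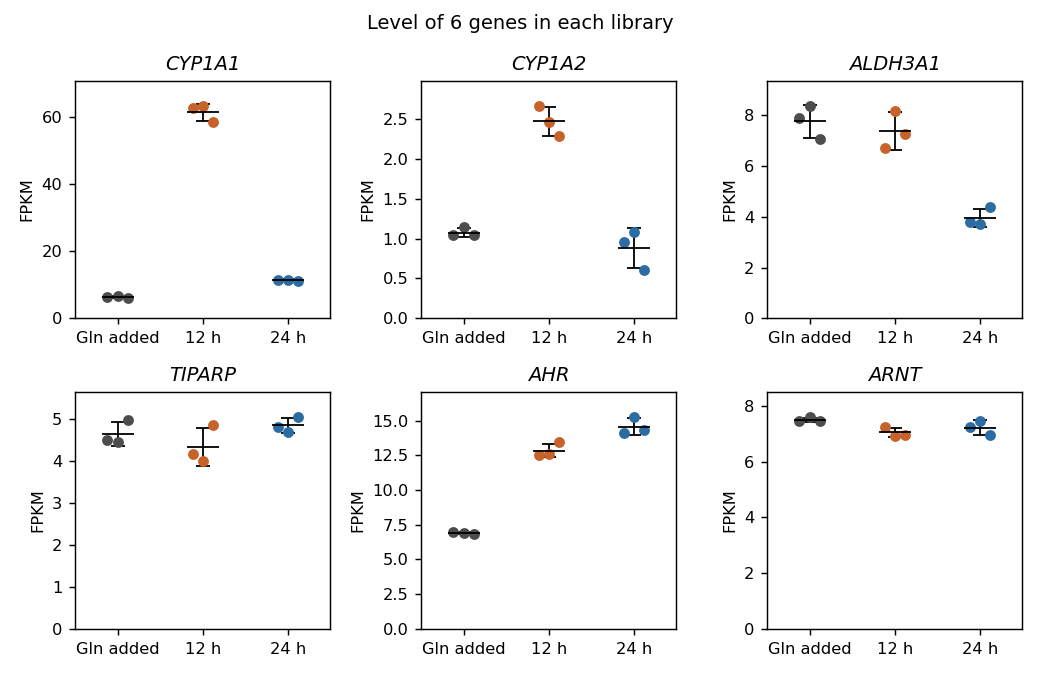
Points are the FPKM of each gene in each library for Gln added, 12 h and 24 h of Gln deprivation (3 libraries each), with the mean and SD as lines and every axis starting at 0. CYP1A1 and CYP1A2 are highest at 12 h, ALDH3A1 is lowest at 24 h, AHR is higher at both times, and the groups of TIPARP overlap throughout.

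Its place among all 22587 genes moved with it, from rank 6428 to 6689 by FPKM with Gln added to 894 to 971 at 12 h and 4646 to 4777 at 24 h. Among the 46 cytochrome P450 symbols of the table, CYP1A1 ranked 7 or 8 with Gln added, 2 in every library at 12 h and 6 in every library at 24 h.

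A gene was said to peak at 12 h where its 3 libraries at that time were each above the other 6, which held for 611 (5.14%) of the 11880 genes tested. The height of a peak was taken as the smaller of the rise from Gln added to 12 h and the fall from 12 h to 24 h, in log2 units. CYP1A1 ranked 1 with a height of 2.43, as its choice implies. Only 3 other genes reached a height of 1: MT1H at 1.23, CYP1A2 at 1.13 and MT1M at 1.01. MT1H and MT1M are metallothioneins, small proteins that bind zinc and copper, and they belong to a family of near-identical copies, so their separate levels are uncertain. MT1M had 22.5 ± 4.19, 45.2 ± 6.99 and 13.9 ± 2.41 FPKM in the Gln-added, 12 h and 24 h libraries (SD, n = 3). The next 6 by height were ASMTL, LYL1, LOC107986291, LINC02331, SULT1E1 (an estrogen sulfotransferase) and NAPRT (an enzyme of NAD synthesis), with heights from 0.896 to 0.568. ASMTL had means of 0.44, 0.89 and 0.39 FPKM in the Gln-added, 12 h and 24 h libraries. It passed the filter only through the 12 h libraries where it was high, so its height is a description.

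**Figure D3:**
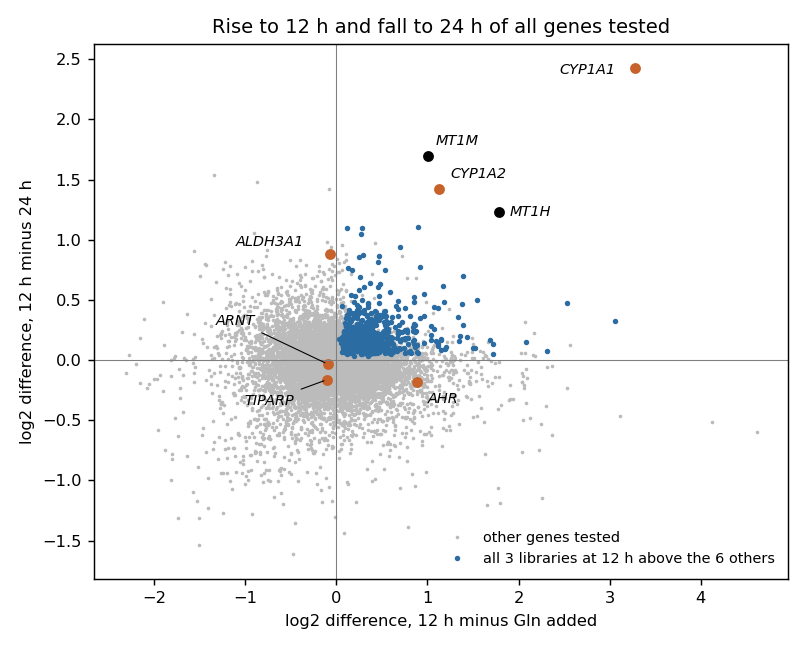
Each point is 1 of the 11880 genes tested, with its log2 difference of 12 h from Gln added on the x axis and of 12 h from 24 h on the y axis. The 611 genes that peak at 12 h are blue, the 6 genes of the AHR axis orange and 2 metallothioneins black, and CYP1A1 stands at 3.28 and 2.43, away from the rest.

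The genes most like CYP1A1 over the 9 libraries were sought among 206 genes whose mean reached 1 FPKM and whose rise at 12 h reached 1 in log2 units. By Pearson's r of log2(FPKM + 0.1), the 10 highest were SLC17A2 (0.914), LOC101927600 (0.904), SULT1E1 (0.900), NUPR1 (0.894), MT1H (0.890), EIF1 (0.864), CYP1A2 (0.862), LINC01564 (0.862), QRICH2 (0.852) and MYC (0.840). All 10 peaked at 12 h, which the required rise and the ranking by likeness to CYP1A1 favour, so it is no separate result. SULT1E1, MT1H and QRICH2 had 0.818, 0.638 and 0.518 FPKM with Gln added. They reached a mean of 1 FPKM only through the libraries without Gln. The libraries fall into 3 groups that share treatment, so these values mostly rank how the group means run and say nothing of shared control. None of the first 6 fell back as far as CYP1A1: NUPR1, a stress-response regulator, had 6.47, 17.0 and 12.3 FPKM at the 3 stages, and EIF1, which selects the start codon in translation, had 167, 344 and 282 FPKM. Of the other members, AHR had an r of 0.579 with CYP1A1, ALDH3A1 0.197, TIPARP -0.518 and ARNT -0.702.

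CYP1A2, next to CYP1A1 on the chromosome, rose at 12 h and fell back by 24 h to a range that overlapped that of Gln added. Its FPKM was below that of CYP1A1 in every library. With Gln added, it stood at 1.05, 1.14 and 1.04 FPKM. At 12 h it stood at 2.66, 2.47 and 2.30 FPKM, above all other libraries. At 24 h it stood at 0.954, 1.08 and 0.604 FPKM, the last from 66 fragments, and the range overlapped that with Gln added. At 12 h, CYP1A2 exceeded Gln added by 1.13 log2 units (SE 0.17, limma adjusted p = 0.00019), a ratio of means of 2.30. From 12 h to 24 h it fell by 1.42 (adjusted p = 0.00027). At 24 h against Gln added the difference of -0.30 did not pass (adjusted p = 0.148), and without replicate 2 at 24 h it was -0.45 with an adjusted p of 0.0352. With a pseudocount of 1 in place of 0.1, the rise was 0.74 and the fall -0.89, both still called. Of 3463 stretches of 25 bases in CYP1A1 transcripts, 63 (1.82%) also occur in CYP1A2, and none of 50 bases do.

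The balance of the 2 genes shifted as well. CYP1A1 stood at 5.79 ± 0.208 times the FPKM of CYP1A2 with Gln added, 24.8 ± 1.17 times at 12 h and 13.6 ± 4.15 times at 24 h (SD, n = 3). The lowest ratio at 24 h was 10.6 and the highest 18.3, so all 3 stayed above every library with Gln added, whose highest was 6.03, and below every library at 12 h.

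ALDH3A1, an aldehyde dehydrogenase and a classical AHR target, did not share the rise. It stood at 7.89, 8.35 and 7.07 FPKM with Gln added. At 12 h it stood at 6.72, 8.19 and 7.27 FPKM, within the spread of Gln added apart from the lowest library. At 24 h it stood at 3.80, 3.70 and 4.37 FPKM, below every other library. Against Gln added, ALDH3A1 differed by -0.07 log2 units at 12 h (SE 0.09, limma adjusted p = 0.512), and by 24 h it fell by 0.96 (adjusted p = 5.08e-06). The fall from 12 h to 24 h was 0.88 (adjusted p = 0.000106). Exons on the opposite strand cover 2.53% of its exonic bases in GENCODE v44.

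TIPARP, an ADP-ribosyltransferase that is induced by AHR and represses it, had no called difference. Its 3 Gln-added libraries stood at 4.49, 4.45 and 4.96 FPKM. Those at 12 h stood at 4.17, 3.99 and 4.85 FPKM, and those at 24 h at 4.81, 4.69 and 5.04 FPKM. All 3 groups overlapped. The log2 difference was -0.10 at 12 h (SE 0.078, adjusted p = 0.303) and 0.06 at 24 h (adjusted p = 0.489). Without replicate 3 at 12 h, the difference at 12 h was -0.18 (adjusted p = 0.0476) and that of 24 h from 12 h was 0.24 (adjusted p = 0.0365).

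AHR itself rose by 12 h and stayed high. It stood at 6.96, 6.90 and 6.81 FPKM with Gln added. At 12 h it stood at 12.5, 12.6 and 13.4 FPKM, and at 24 h at 14.1, 15.2 and 14.3 FPKM, so that the groups did not overlap. AHR exceeded Gln added by 0.89 log2 units at 12 h (SE 0.047, limma adjusted p = 9.02e-08) and by 1.07 at 24 h (adjusted p = 1.45e-08), ratios of means of 1.86 and 2.11. The further rise of 0.18 from 12 h to 24 h had an adjusted p of 0.0228, and the call was lost with median-ratio scaling (0.14, adjusted p = 0.0504), with only the 2 groups compared in the fit (adjusted p = 0.0565), and without replicate 1 (0.0808) or 2 (0.0762) at 12 h or replicate 2 at 24 h (0.0774). In GENCODE v44, a gene on the same strand covers 29.5% of the exonic bases of AHR and 1 on the opposite strand 6.11%, so its absolute level is uncertain.

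ARNT, the partner that AHR shares with the hypoxia factors, had no called difference. Its 3 Gln-added libraries stood at 7.44, 7.59 and 7.45 FPKM. Those at 12 h stood at 7.25, 6.92 and 6.96 FPKM, and those at 24 h at 7.24, 7.46 and 6.95 FPKM. The 3 libraries at 12 h were all below those with Gln added, with a log2 difference of -0.09 (SE 0.046, adjusted p = 0.119), and the difference at 24 h was -0.05 (adjusted p = 0.325). AHR stood at 0.919 ± 0.0139 times the FPKM of ARNT with Gln added, 1.83 ± 0.0984 times at 12 h and 2.02 ± 0.0599 times at 24 h (SD, n = 3). The FPKM of the receptor was below that of its partner in all 3 libraries with Gln added and above it in all 6 without Gln. As the absolute level of AHR is uncertain, so is which of the 2 mRNAs was more abundant with Gln added.

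**Figure D4:**
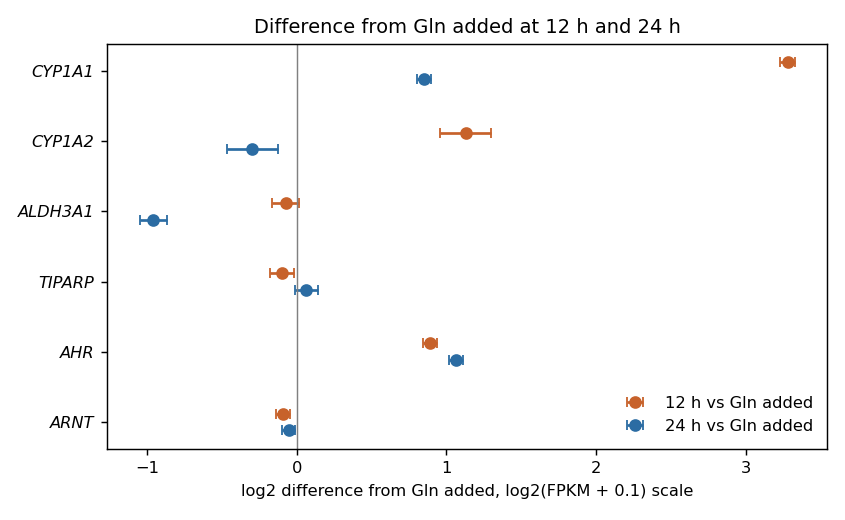
Points are log2 differences of FPKM + 0.1 from Gln added at 12 h (orange) and 24 h (blue), 3 libraries per group, with the standard error of the fit as bars. CYP1A1 goes from 3.28 to 0.85 and CYP1A2 from 1.13 to -0.30, ALDH3A1 goes from -0.07 to -0.96, and AHR goes from 0.89 to 1.07.

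Among the 5 members beside CYP1A1, 2 (CYP1A2 and AHR) were called higher at 12 h, where 29.1% of all genes tested were higher and 31.0% lower, and none was called lower. At 24 h, AHR was higher and ALDH3A1 lower, beside 33.0% and 31.7% of all genes. Between the times, AHR was higher at 24 h and CYP1A2 and ALDH3A1 lower, beside 9.57% and 10.5% of all genes. The share of higher genes among all calls between the times was 47.7%, and 33.4% with median-ratio scaling. The median of the 5 members was -0.07 at 12 h and -0.05 at 24 h, beside -0.02 and 0.01 over all genes tested. Permutation of 3 libraries against 3 gave p = 0.1 for each of these called differences, the smallest that this exact test allows.

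The order of the 6 levels by FPKM changed at each stage, and the place of AHR in it is uncertain, as its absolute level is. With Gln added, ALDH3A1 (7.77 FPKM) and ARNT (7.50 FPKM) came first with overlapping libraries, followed without overlap by AHR, CYP1A1, TIPARP and CYP1A2. At 12 h, CYP1A1 came first and AHR second, ALDH3A1 and ARNT overlapped again, and TIPARP and CYP1A2 came last. At 24 h, AHR (14.5 FPKM) came before CYP1A1 (11.3 FPKM), then ARNT, TIPARP, ALDH3A1 and CYP1A2, and no neighbours overlapped. Per unit of AHR mRNA, CYP1A1 stood at 0.903 ± 0.0366 in the Gln-added libraries, 4.78 ± 0.376 after 12 h and 0.779 ± 0.0282 after 24 h (SD, n = 3). All 3 libraries at 24 h were below those with Gln added in this ratio.

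Of 9 other known AHR targets, 7 passed the filter. At 12 h, 5 of the 7 were higher and 1 lower, beside 29.1% and 31.0% of all genes. By 24 h, 4 were higher and 1 lower, beside 33.0% and 31.7%, and the median log2 difference was 0.27 and then 0.16, beside -0.02 and 0.01 over all genes. NQO1, a quinone reductase that NFE2L2 also induces, had 561 ± 5.72, 676 ± 1.81 and 628 ± 19.9 FPKM in the Gln-added, 12 h and 24 h libraries (SD, n = 3). It exceeded Gln added by 0.27 at 12 h (limma adjusted p = 3.74e-05) and by 0.16 at 24 h (adjusted p = 0.00105). SLC7A5, which imports large neutral amino acids including tryptophan, rose by 0.53 at 12 h (adjusted p = 3.17e-06) and by 0.21 at 24 h. NFE2L2, the main regulator of antioxidant genes, rose by 0.51 and 0.45. ABCG2, a drug efflux pump, rose by 0.17 at 12 h (adjusted p = 0.0228) and 0.19 at 24 h, and the call at 12 h was lost without any 1 of the 3 libraries with Gln added or without replicate 1 or 3 at 12 h (adjusted p from 0.0545 to 0.0748).

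UGT1A1, which conjugates bilirubin, rose by 0.39 at 12 h (adjusted p = 0.00199), and UGT1A6 was called at neither time, with 0.790 ± 0.211, 0.833 ± 0.0897 and 0.817 ± 0.102 FPKM (SD, n = 3). Both share exons of the UGT1A locus, so reads could be split between them. GSTA1, a glutathione transferase with close copies, was the lone member of this list to fall, from 27.5 ± 1.21 FPKM to 15.8 ± 0.714 and then 9.28 ± 0.706 (SD, n = 3), by 0.80 and 1.56 on the log2 scale (adjusted p = 1.23e-06 and 5.29e-09). CYP1B1, the third enzyme of the CYP1 family, was not tested: it had 0 to 3 fragments per library, with totals of 4, 7 and 3 over the Gln-added, 12 h and 24 h libraries. AHRR was not analysed here.

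Between 12 h and 24 h, 4 of these 7 targets fell (NQO1, UGT1A1, GSTA1 and SLC7A5) and none rose, beside 10.5% of all genes lower and 9.57% higher. The differences were -0.11, -0.34, -0.76 and -0.31, in the same order. Without replicate 3 at 24 h, 2 were called. The adjusted p of NQO1 was 0.041, and it lost the call under 12 of 19 alternatives. UGT1A1, SLC7A5 and NQO1 also met the definition of a peak at 12 h, with ranks 53, 67 and 464 of 611 by height.

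**Figure D5:**
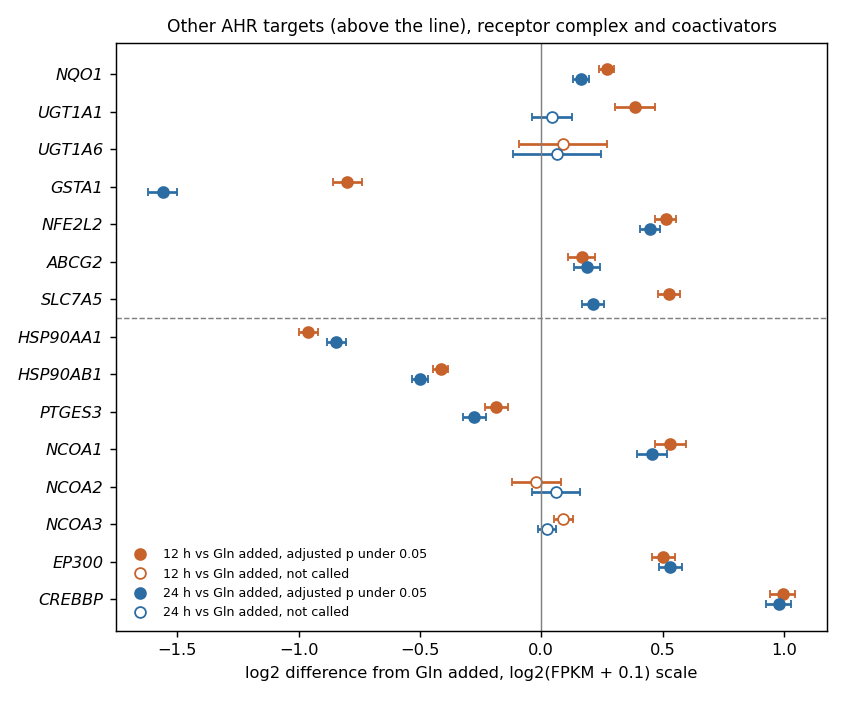
Points are log2 differences of FPKM + 0.1 from Gln added at 12 h (orange) and 24 h (blue) with the standard error of the fit, 3 libraries per group. Filled points had an adjusted p under 0.05, as for 6 of the 7 targets above the dashed line and 6 of the 8 complex and coactivator genes below it at 12 h.

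Of 8 genes listed for the receptor complex and its coactivators, 3 were higher and 3 lower at each time, beside 29.1% and 31.0% of all genes at 12 h and 33.0% and 31.7% at 24 h. The medians were 0.04 at both times. The chaperones HSP90AA1, HSP90AB1 and PTGES3, which hold AHR in the cytoplasm, were lower. HSP90AA1 had 593 ± 20.9, 304 ± 9.94 and 329.9 ± 9.70 FPKM in the Gln-added, 12 h and 24 h libraries (SD, n = 3). HSP90AB1 fell by 0.41 and 0.50 on the log2 scale, and PTGES3 fell by 0.19 and 0.28. HSP90AA1 fell by 0.96 at 12 h (limma adjusted p = 1.46e-08) and by 0.85 at 24 h. Both HSP90 genes have close sequences, and reads could be split between them. The coactivators CREBBP, EP300 and NCOA1, histone acetyltransferases or their partners, were higher. CREBBP went from 7.75 ± 0.084 FPKM to 15.6 ± 0.533 and 15.4 ± 0.976, a log2 difference of 1.00 (adjusted p = 7.46e-08) and 0.98. EP300 rose by 0.50 and 0.53, and NCOA1 by 0.53 and 0.46. NCOA2 and NCOA3, coactivators related to NCOA1, were not called at either time. NCOA3 had 17.4 ± 0.201, 18.5 ± 0.0872 and 17.7 ± 0.648 FPKM in the 3 groups in order (SD, n = 3). None of the 8 was called between 12 h and 24 h by limma, where 2 had an unadjusted p under 0.05 and 2 were called by voom on the recovered fragments.

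Other bHLH-PAS factors belong to the family of AHR and ARNT. Of 13 listed, 8 passed the filter, and at 12 h 5 of them were called higher and 1 lower, beside 29.1% and 31.0% of all genes. At 24 h, 6 were higher and 1 lower, beside 33.0% and 31.7%. The medians were 0.26 and 0.44, beside -0.02 and 0.01 over all genes, and no test compared the list with other genes. These counts hold NPAS1 and SIM2, which had 0.355 and 0.350 FPKM with Gln added and passed the filter only through the Gln-deprived libraries where they were higher. Their differences, 0.83 and 1.05 for NPAS1 and 0.61 and 0.80 for SIM2, are a description. EPAS1, a hypoxia factor that pairs with ARNT, rose from 60.2 ± 0.554 to 88.3 ± 2.86 and 86.9 ± 1.34 FPKM (SD, n = 3), by 0.55 and 0.53 (adjusted p = 2.46e-07 and 2.23e-07 from limma). NPAS2, a partner in the circadian clock, rose by 0.29 and 0.48. SIM1 and NPAS3 were not analysed here.

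The next list holds enzymes that break down tryptophan, the source of several endogenous AHR ligands. Of 13 listed, 7 passed the filter, of which 6 were lower and 1 higher at 12 h, beside 31.0% and 29.1% of all genes. At 24 h, 6 were lower and none higher, beside 31.7% and 33.0%. The medians were -0.35 and -0.38, and no test compared the list with other genes. HAAO fell by 0.65 and 0.90, QPRT by 0.35 and 0.73, KYAT3 by 0.58 and 0.36 and AADAT by 0.47 and 0.41 on the log2 scale. All 4 act after the first step of the kynurenine pathway. QPRT, which leads to NAD, had 129 ± 1.57, 102 ± 2.09 and 78.1 ± 3.02 FPKM in the 3 groups in order (SD, n = 3). The enzymes of the first step were at the limit of detection: TDO2 had at most 2 fragments in a library, and IDO1 and IDO2 at most 1. KYNU was the gene that rose at 12 h, by 0.35 (adjusted p = 0.00193), and it was among the genes that peaked then.

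Of 3 partners that pass electrons to cytochrome P450 enzymes, 1 was higher and 2 lower at each time. Of all genes tested, 29.1% were higher and 31.0% lower at 12 h, and 33.0% and 31.7% at 24 h. POR, the reductase that CYP1A1 and CYP1A2 depend on, had 60.4 ± 2.25, 103 ± 4.52 and 88.2 ± 3.85 FPKM in the Gln-added, 12 h and 24 h libraries (SD, n = 3). It rose by 0.78 (limma adjusted p = 2.19e-07) and 0.55, and it peaked at 12 h. CYB5A fell by 0.63 and 0.87, and CYB5R3 by 0.41 and 0.48.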

How the data were processed

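RNA of 9 HepG2 libraries (3 groups of 3) was sequenced. The authors aligned paired reads to GRCh38 with STAR according to the methods, the submitters' processing notes name HTSeq and R 3.2.0, and the version of the annotation is not given in the sources used here. The labels and the methods name different library kits, so strand specificity is uncertain. FPKM values were deposited by the authors, and each column was matched to its library by the labels. Whole fragments were recovered for 100% of the 22587 genes (within 0.01 fragments) from the steps between FPKM values. On simulated data for 4785 genes, the fragments of 94.6% were returned.

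Because FPKM are not counts, limma 3.58.1 (R 4.3.3, eBayes with a trend) was fitted to log2(FPKM + 0.1) of 11880 genes (mean FPKM over the 9 libraries of 0.5 or more). All 3 groups shared the fit, and p-values were adjusted by Benjamini-Hochberg over every gene tested. Differences on this scale understate those of low genes. A call is an adjusted p under 0.05. On simulated data for 12 h against Gln added, 193 of 196 changed genes were called, with 11 false calls in 204. The simulated libraries had the same spread for all genes and few changed genes, unlike these data. The rate of false calls in these data cannot be read from them. Members beside CYP1A1 also had an exact two-sided permutation test on FPKM. All replicate pairs differed by more than sampling noise. The members, the 6 gene lists and the tests were chosen with earlier results of these data known, from general knowledge of the pathways. Every member is named, and so is every tested gene of the target and complex lists, up to 4 called genes by size of change from the other lists, and the 10 genes most like CYP1A1 or with the highest peak. KYNU, CYP1B1, TDO2, IDO1 and IDO2 were added after their values were seen. Alternatives changed the pseudocount, the filter, the scaling, the samples fitted, the replicate block and the trend, used voom on recovered fragments, or left out each library in turn. Sequences and start sites are from RefSeq (GRCh38.p14), with 5 of the 6 members in the promoter table, and overlaps are from GENCODE v44. The TRIB3 knockdown libraries of the study were not analysed here, and 1 listed gene is not reported here. Figures were drawn with matplotlib 3.10.9.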

Additional observations from a re-analysis of the deposited data

Results flagged for a closer look

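Levels differed between 12 h and 24 h for 3 of the 5 members beside CYP1A1, by limma's direct test of 24 h against 12 h. Of all genes tested, 9.57% were higher at 24 h than at 12 h and 10.5% lower. The log2 difference of 24 h from 12 h was -1.42 for CYP1A2 (adjusted p = 0.00027), -0.88 for ALDH3A1 (adjusted p = 0.000106) and 0.18 for AHR (adjusted p = 0.0228). The call of AHR was lost under 5 of the 19 alternatives. The libraries of the 2 times did not overlap for any of the 3 members. As these were picked by their calls in the same comparison, this is a description and no separate result. The share of all genes without overlap was not counted. Both times are compared with the same 3 libraries with Gln added, and the direct test does not use them except for the estimate of the spread.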

How the results depend on the processing

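Of 69 gene differences called, 61 were called under each of the 19 alternatives that tested the gene. CYP2B6, NPAS1 and SIM2, with means of 0.558, 0.627 and 0.542 FPKM over the 9 libraries, were not tested with a mean of at least 1 FPKM. Their calls therefore depend on the filter. The other 8 are that of ABCG2 at 12 h and, between the times, those of AHR, HAAO, KYAT3, NPAS2, NQO1, NR1I2 and UGT1A1. With a pseudocount of 1, CYP1A1 differed by 3.11 at 12 h, 0.77 at 24 h and -2.34 between the times. The difference of ARNT between the times, which was not called, turned to -0.00079 with median-ratio scaling. The count of complex and coactivator genes called between the times, 0 as reported, was 1 with FPKM rescaled to the same total, 1 with median-ratio scaling, 2 with voom and 0 to 1 with 1 library left out. That of other AHR targets was 2 to 4 with 1 library left out. Of the CAR and PXR genes, 4 were called at 12 h with no filter and 1 with a mean of at least 1 FPKM. CYP1A1 kept rank 1 by peak height under every alternative run for it, which its choice for this peak favours, so it is no separate result. The number of peaking genes ranged from 640 to 893 with 1 library left out and was 885 with median-ratio scaling. Deviations of same-numbered replicates from their group means had correlations from -0.136 to 0.283, against -0.467 to 0.296 for other pairs. With 3 libraries per group, this cannot decide whether the numbers pair the libraries. With the replicate block, 7341 genes were called at 12 h, 7802 at 24 h and 2586 between the times, against 7147, 7686 and 2386 without it, and the block changed no call of a member: 2, 2 and 3 of the 5 beside CYP1A1 were called in both fits. Among the members, CYP1A2 had the fewest fragments (66 to 280 per library), and CYP1B1 had too few to compare.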

Other observations

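Genes of the other xenobiotic receptors of liver, CAR (NR1I3) and PXR (NR1I2), were followed beside those of AHR. Of 10 listed, 4 passed the filter, and 2 were higher and none lower at 12 h, beside 29.1% and 31.0% of all genes. At 24 h, 2 were higher and 2 lower, beside 33.0% and 31.7%. CYP2B6, a drug-metabolising enzyme and the usual marker of CAR, had a mean of 0.0613, 0.687 and 0.925 FPKM in the Gln-added, 12 h and 24 h libraries (n = 3 each), and each Gln-added library held between 4 and 10 of its fragments. It passed the filter only through the Gln-deprived libraries where it was high, so its calls as higher, with differences of 2.30 and 2.68 log2 units, are a description. ABCB1, a drug efflux pump, rose by 1.15 and 1.28 (adjusted p = 6.29e-09 and 1.94e-09). CYP3A5 fell by 0.38 and NR1I2 by 0.31 at 24 h. The main drug-metabolising enzyme CYP3A4 had 1 to 8 fragments in a library and was not tested.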
